A study of Mus musculus with 18 samples.

Results

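The 9 genes Kit, Cxcr4, Flt3, Kitl, Cxcl12, Csf1, Thpo, Epo and Meis1, which encode signals and receptors of blood stem cells and of the tissue that houses them, were taken from a table of 31165 genes by their gene symbols, and each symbol matched 1 row. The RNA came from livers of newborn C57BL/6J mice that had received either a stabilised copy of the microRNA miR-497a-5p (a mimic) or a scrambled mimic by intraperitoneal injection on postnatal days 1 and 3. Livers were taken on postnatal day 5, 7 or 14 (P5, P7, P14). There were 6 groups of 3 libraries each, named here as P5 mimic, P5 scrambled, P7 mimic, P7 scrambled, P14 mimic and P14 scrambled, 18 in all. Every pup, scrambled ones included, was injected, and no uninjected group is analysed here. Doses of 100 mg per kg and of 10 mg per kg appear in the protocol, and no library's label says which it received. Litters were mixed and redistributed to nursing dams per the labels, and the labels tie no library to a litter, so p-values measure the spread between these livers.

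The liver is the main site of blood formation before birth, and blood cells leave it for the bone marrow around birth. Blood stem and progenitor cells are held and fed there by a few signals. Stem cell factor (Kitl) acts through the receptor Kit, the chemokine Cxcl12 holds cells that carry Cxcr4, erythropoietin (Epo) acts through Epor, Csf1 through Csf1r, and Flt3 ligand through Flt3. Thrombopoietin (Thpo) is a hormone of stem cells and megakaryocytes. Meis1 is a homeobox transcription factor of stem cells and megakaryocytes.

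The mimic carries the mature sequence of miR-497a-5p, and its seed guides pairing with messages, so the seed and its matches in the 9 genes are shown. The mature sequence (RefSeq, GRCm38.p6, chr11:70234730-70234751, plus strand) has the seed, bases 2 to 8, in capitals, and miR-195a-5p, miR-15a-5p and miR-16-5p share it.
miR-497a-5p: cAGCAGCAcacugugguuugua
miR-195a-5p: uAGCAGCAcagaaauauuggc
miR-15a-5p: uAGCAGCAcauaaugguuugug
miR-16-5p: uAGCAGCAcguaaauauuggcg

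The 7-base complement of the seed, TGCTGCT, was searched on the sense strand of the longest annotated 3′ UTR of each gene (GENCODE M21, GRCm38). It occurred in Kit, Cxcl12, Csf1 and Epo. It was not among the letters of the UTRs of Cxcr4, Flt3, Kitl, Thpo and Meis1, although those of Kitl and Meis1 are 4435 and 5687 bases long. Of 13190 tested genes with an annotated 3′ UTR, 3231 (24.5%) held it. The 4 messages are shown with the match in capitals, Cxcl12 with both of its matches.
Kit, chr5:75654560-75654589, plus strand: ccaacaggcttTGCTGCTgtctccgacccc
Cxcl12, chr6:117178219-117178248, plus strand: cactgggcaccTGCTGCTgttagggccaat
Cxcl12, chr6:117180677-117180706, plus strand: tgtttatacacTGCTGCTggctcccgagga
Csf1, chr3:107741597-107741626, minus strand: tggtctctttaTGCTGCTgagtcccccttt
Epo, chr5:137483055-137483084, minus strand: caTGCTGCTgccaccgtggtggaccgacga

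The promoters of Cxcr4 and Cxcl12 are shown because this receptor and its ligand moved in opposite directions with age. Each is the 250 bases before the annotated start (RefSeq, GRCm38.p6), with capitals for a GC box (GGGCGG) or a TATA box (TATAAA) on either strand. Cxcr4 held 3 GC boxes and 2 TATA matches, which overlap, and Cxcl12 held 5 GC boxes, a pair of them overlapping, and no TATA match. Of 32851 promoters of the same length 32.7% held the GC box and 12.4% the TATA box. A match is a description of these letters and not a site shown to be used.
Cxcr4, chr1:128592300-128592549, minus strand: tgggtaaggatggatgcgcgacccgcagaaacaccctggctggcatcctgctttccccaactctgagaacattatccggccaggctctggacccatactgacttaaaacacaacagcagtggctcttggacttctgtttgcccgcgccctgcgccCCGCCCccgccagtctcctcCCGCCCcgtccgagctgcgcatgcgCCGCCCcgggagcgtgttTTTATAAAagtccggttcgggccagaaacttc
Cxcl12, chr6:117168285-117168534, plus strand: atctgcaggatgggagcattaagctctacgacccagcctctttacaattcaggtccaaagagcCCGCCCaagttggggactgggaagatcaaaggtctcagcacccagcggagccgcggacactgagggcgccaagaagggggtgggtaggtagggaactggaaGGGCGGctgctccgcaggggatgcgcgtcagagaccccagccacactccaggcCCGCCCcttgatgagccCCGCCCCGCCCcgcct

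The values are gene counts that the authors scaled to a common library size and rounded, called scaled counts here. They summed to between 3954405 and 4248257 per library, and the spacing of the low whole numbers placed the reads assigned to genes between 3006600 and 5323000. By the same estimate a library held 1356 to 2396 reads of Cxcl12, 84 to 277 of Kit, 11 to 96 of Flt3 and 0 to 10 of Epo. Hepatocyte markers were present in every liver. The 6 markers of pancreas and gut summed to means of 426 to 547 in the 6 groups, with Prss2 and Pnlip averaging under 1 scaled count over the 18 libraries. In P7 scrambled replicate 3, genes that are nearly silent in the other livers carried 2.90 scaled counts per kb of exon. The value was 0.158 in P7 scrambled replicate 2 and no more than 0.0245 in any other library. Skeletal muscle markers summed to 1455, 22 and 394 in P7 scrambled replicates 1, 2 and 3, against 3 to 4 in the P7 mimic livers. Libraries also leaned towards short or long transcripts, with a rank correlation with length that was lowest in P5 scrambled replicate 2 (-0.316) and highest in P7 mimic replicate 1 (0.431). By day it ran from -0.316 to 0.186 at P5, 0.050 to 0.431 at P7 and -0.233 to 0.012 at P14. The lean thus went in part with day, and comparisons with P7 carry it. Replicates differed by more than counting error: the squared difference over the sum, averaged over genes, was 1.82 to 8.78 for replicate pairs, against at most 1.413 from counting alone.

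Cxcl12 had the highest level per kb of exon among the 9 genes at each day. At P5 Cxcl12 averaged 210 scaled counts per kb and Cxcr4 168, and their ranges over the 6 livers overlapped. Thpo, Csf1 and Kitl followed at 70.6, 51.1 and 42.0 per kb, Thpo overlapping Csf1 and Csf1 overlapping Kitl. Kit at 19.8, Meis1 at 12.9 and Flt3 at 8.42 per kb came next without overlap between them, and Epo was lowest at 5.26, overlapping Flt3. By P14 the order had changed: Cxcr4, at 36.4 per kb, stood below Thpo at 81.1 and Csf1 at 52.3, and Flt3, at 3.02, stood below Epo at 5.46. The ranges of Cxcr4 overlapped those of Csf1 and of Kitl at P14, and those of Flt3 and Epo overlapped too. Albumin, usually among the most abundant liver messages, averaged 2086 ± 279 scaled counts (SD, n = 18) and Cxcl12 1949. Whether values of abundant messages such as Cxcl12 were held down was not tested.

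**Figure D1:**
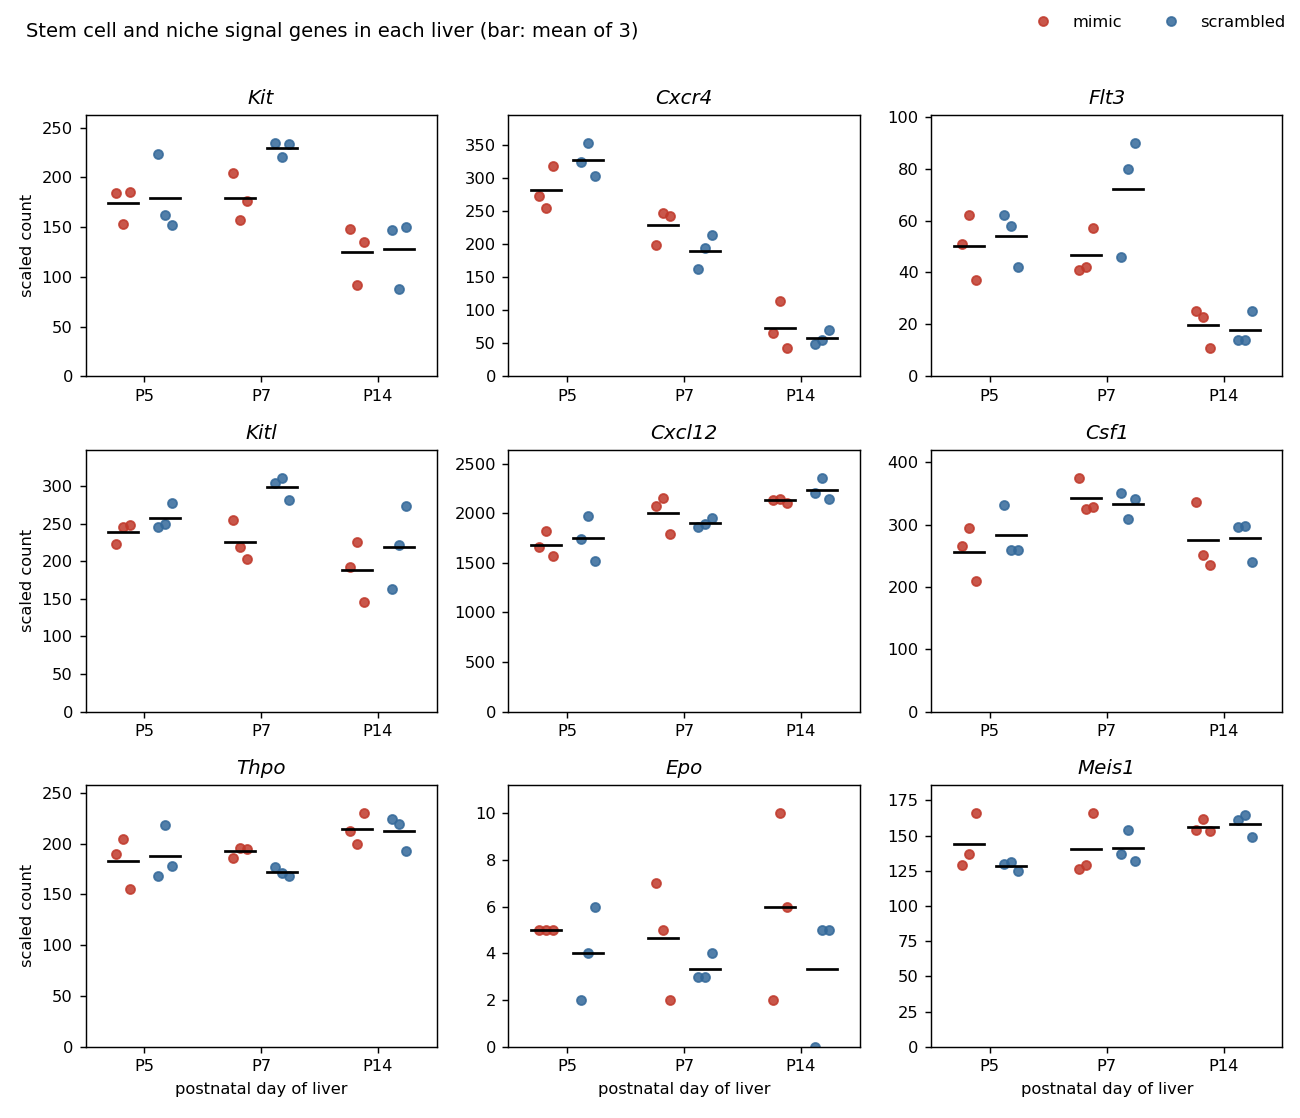
Scaled counts of the 9 genes (y axis, linear, a scale of its own in each panel) in each liver at P5, P7 and P14 (x axis), mimic in red left of scrambled in blue, with a bar at the mean of 3. Cxcr4 fell at each step, to between 43 and 113 at P14, and Epo lies between 0 and 10 throughout.

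Between P7 and P14 the receptors Cxcr4, Flt3 and Kit fell, with log2 differences of -1.71, -1.62 and -0.71. Of the 9 genes 7 changed: 5 fell and 2 rose, and of all 14104 genes tested 50.3% were called in that comparison, 26.3% lower and 24% higher, so a change as such does not set these genes apart. Tests between days averaged mimic and scrambled livers and used limma on log2(scaled count + 1), with Benjamini-Hochberg adjustment over all genes tested and a threshold of 0.05.

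Cxcr4, the receptor that holds stem cells and neutrophils by Cxcl12, had 273, 254 and 318 scaled counts in P5 mimic livers, against 323, 353 and 303 in P5 scrambled livers. It had 198, 246 and 242 in P7 mimic livers, against 162, 194 and 214 in P7 scrambled livers. At P14 it had 65, 113 and 43 in mimic livers, against 49, 55 and 70 in scrambled livers. No liver of one day reached into the range of another day. The log2 difference was -0.54 ± 0.17 (SE) for P7 over P5 (limma adjusted p = 0.0236) and -1.71 ± 0.17 for P14 over P7 (limma adjusted p = 1.73e-07). Set against P5, the P14 livers differed by -2.25 (limma adjusted p = 2.55e-09). The earlier step was not called without P5 mimic replicate 3, P5 scrambled replicate 2, P7 mimic replicate 1 or P7 scrambled replicate 1 (limma adjusted p up to 0.0686). The difference after P7 was -1.72 in mimic livers alone and -1.70 in scrambled livers alone. In these whole livers fewer cells of a type and less RNA per cell cannot be told apart.

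Flt3, a receptor of early progenitors and dendritic cells, had 51, 62 and 37 scaled counts in P5 mimic livers, against 62, 58 and 42 in P5 scrambled livers. P7 mimic livers had 41, 42 and 57, against 46, 80 and 90 in P7 scrambled livers. In P14 mimic livers it stood at 25, 23 and 11, against 14, 14 and 25 in P14 scrambled livers. All P14 livers lay below all P7 and P5 livers. Flt3 fell by 1.62 ± 0.23 (SE) on the log2 scale between P7 and P14 (limma adjusted p = 1.99e-05). The difference was -1.27 in mimic livers alone and -1.96 in scrambled livers alone, where 29.5% and 33.8% of all genes were called. Between P5 and P7 the log2 difference was 0.14 (limma adjusted p = 0.669).

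Kit, the stem cell factor receptor, which mast cells also carry, had 184, 153 and 185 scaled counts in P5 mimic livers, against 224, 162 and 152 in P5 scrambled livers. It had 204, 157 and 176 in P7 mimic livers, against 235, 221 and 234 in P7 scrambled livers. P14 mimic livers had 148, 92 and 135, against 147, 88 and 150 in P14 scrambled livers. The highest P14 liver, at 150, lay just below the lowest P5 liver, at 152. Kit fell by 0.71 ± 0.14 (SE) on the log2 scale between P7 and P14 (limma adjusted p = 0.000612) and by 0.50 between P5 and P14 (limma adjusted p = 0.00775). In mimic livers alone the difference after P7 was -0.54 and was not called (limma adjusted p = 0.0548), and in scrambled livers alone it was -0.88 (limma adjusted p = 0.00283). For P7 over P5 the log2 difference was 0.21 (limma adjusted p = 0.29).

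Of the 8 genes tested, 3 had P14 livers wholly apart from P7 livers, Cxcr4, Flt3 and Kit, beside 25.5% of all genes tested. Against P5 there were 4, these and Cxcl12, beside 26.2% of all genes, and between P7 and P5 only Cxcr4, beside 5.23%. The 3 receptor calls between P7 and P14 held without any single library and without P7 scrambled replicates 2 and 3 together, which leaves P7 scrambled replicate 1 alone in its group, with log2 differences of -1.60 for Cxcr4, -1.33 for Flt3 and -0.72 for Kit in the last case.

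Summed markers of several blood cell types were lower at P14 as well. The 12 erythroid markers summed to 2166 to 3749 scaled counts in P14 livers, against 6828 to 11068 in P7 livers. The 9 neutrophil precursor markers summed to 609 to 1410 at P14, against 3196 to 4150 at P7, and the 8 megakaryocyte markers to 310 to 919, against 1111 to 2047. The 8 mast cell and basophil markers summed to 24 to 61 at P14, against 203 to 544 at P7, and the 8 B cell markers to 252 to 549, against 424 to 741. The 6 dendritic cell markers other than Flt3 summed to 463 to 540 at P14 and 386 to 565 at P7, and so overlapped, unlike Flt3. Every marker in these lists averaged at least 1 scaled count over the 18 libraries, and averages of single markers by day were not taken. The part of these cells in the fall of the receptors was not tested.

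**Figure D2:**
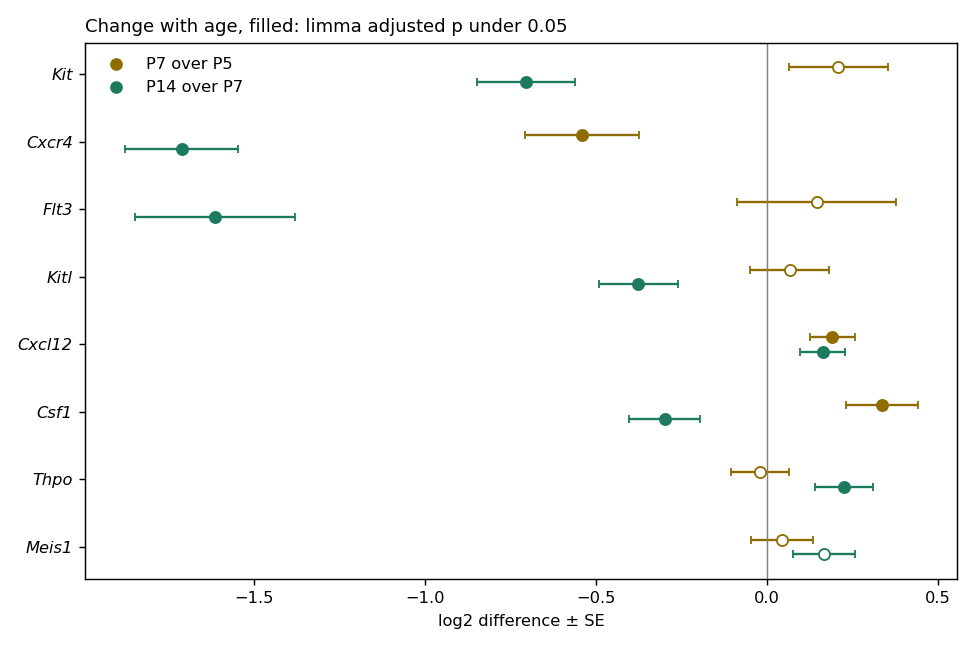
Log2 differences (x axis, bars SE) of the 8 tested genes (y axis) for P7 over P5 in brown and P14 over P7 in green, filled where the limma adjusted p is under 0.05. Cxcr4 at -1.71 and Flt3 at -1.62 lie farthest left, while Cxcl12, Thpo and Meis1 lie right of 0 for P14 over P7.

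Among the ligands Kitl and Csf1 fell and Cxcl12 and Thpo rose between P7 and P14, none by more than 0.38 on the log2 scale, and Epo was near the limit of detection at every day.

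Cxcl12, made in liver by stellate and endothelial cells, had 1663, 1820 and 1564 scaled counts in P5 mimic livers, against 1741, 1972 and 1521 in P5 scrambled livers. It had 2068, 2154 and 1790 in P7 mimic livers, against 1860, 1890 and 1951 in P7 scrambled livers. P14 mimic livers had 2137, 2141 and 2106, against 2208, 2356 and 2143 in P14 scrambled livers. All P14 livers were above all P5 livers, and the P7 livers overlapped both. The log2 difference over P5 was 0.35 at P14 (limma adjusted p = 0.000215), a change that held without any single library. The 2 shorter steps were 0.19 ± 0.07 (SE) for P7 over P5 (limma adjusted p = 0.0407) and 0.16 ± 0.07 for P14 over P7 (limma adjusted p = 0.0491). The earlier step stayed under 0.05 in 9 of the 18 fits that left out 1 library, and the later step in 4. With a trend on transcript length removed the earlier step was 0.05 (limma adjusted p = 0.666) and the later 0.30 (limma adjusted p = 0.00334). Stellate cell markers summed to 3648 to 5180 at P5, 5021 to 6049 at P7 and 4351 to 6745 at P14, and sinusoidal endothelial markers to 4077 to 5143, 3979 to 5407 and 3784 to 4216. Their part in the level of Cxcl12 was not tested.

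Kitl, stem cell factor, had 223, 245 and 248 scaled counts in P5 mimic livers, against 245, 249 and 278 in P5 scrambled livers. It had 255, 219 and 203 in P7 mimic livers, against 304, 311 and 282 in P7 scrambled livers. P14 mimic livers had 193, 225 and 146, against 163, 221 and 273 in P14 scrambled livers. The 3 days overlapped throughout. Kitl fell by 0.38 ± 0.12 (SE) on the log2 scale between P7 and P14 (limma adjusted p = 0.0113), a call kept in all 18 fits that left out 1 library but not without P7 scrambled replicates 2 and 3 together, which leaves 1 P7 scrambled library (limma adjusted p = 0.055). For P14 over P5 the difference of -0.31 (limma adjusted p = 0.0315) kept its call in 13 of those 18 fits. In mimic livers alone the difference after P7 was -0.28 (limma adjusted p = 0.202) and in scrambled livers alone -0.48 (limma adjusted p = 0.0305).

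Csf1, the growth factor of macrophages and of the Kupffer cells of the liver, had 265, 295 and 209 scaled counts in P5 mimic livers, against 331, 260 and 259 in P5 scrambled livers. It had 375, 325 and 328 in P7 mimic livers, against 351, 309 and 341 in P7 scrambled livers. P14 mimic livers had 337, 252 and 235, against 296, 298 and 240 in P14 scrambled livers. The mean of Csf1 was highest at P7, with overlap on both sides. Its log2 difference was 0.34 ± 0.10 (SE) for P7 over P5 (limma adjusted p = 0.0257) and -0.30 ± 0.10 for P14 over P7 (limma adjusted p = 0.0234), and 0.04 for P14 over P5 (limma adjusted p = 0.806). The rise was not called without P5 mimic replicate 3, P5 scrambled replicate 2 or 3, P7 mimic replicate 1 or P7 scrambled replicate 1, nor the fall without P7 mimic replicate 1, P14 mimic replicate 2 or 3 or P14 scrambled replicate 3. Kupffer cell markers summed to 4652 to 5601 at P5, 4314 to 5492 at P7 and 3396 to 4345 at P14.

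Thpo, the hepatocyte hormone that maintains stem cells and platelet formation, had 190, 205 and 155 scaled counts in P5 mimic livers, against 168, 218 and 178 in P5 scrambled livers. It had 186, 196 and 195 in P7 mimic livers, against 177, 171 and 168 in P7 scrambled livers. P14 mimic livers had 212, 200 and 230, against 224, 219 and 193 in P14 scrambled livers. The P14 livers overlapped the earlier ones. Its log2 difference for P14 over P7 was 0.22 ± 0.09 (SE) (limma adjusted p = 0.0359), under 0.05 in 10 of the 18 fits with 1 library left out, and 0.13 (limma adjusted p = 0.178) with the trend on transcript length removed. Hepatocyte markers summed to 8104 to 10311 at P14, against 6594 to 8798 at P7.

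Epo, the red cell hormone that the kidney takes over from the liver around birth, was listed at 5, 5 and 5 scaled counts in P5 mimic livers, against 2, 4 and 6 in P5 scrambled livers. It had 7, 5 and 2 in P7 mimic livers, against 3, 3 and 4 in P7 scrambled livers. P14 mimic livers had 2, 10 and 6, against 0, 5 and 5 in P14 scrambled livers. These are a few reads each, and Epo was left out of the fit across genes because its mean of 4.39 was under 10. Exact two-sided permutation tests gave adjusted p = 0.9 for P7 over P5 and 0.909 for P14 over P7, at 6 livers a day. No change was detected at this depth.

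Meis1, the only transcription factor among the 9, had the narrowest range relative to its mean, between 125 and 166 scaled counts in all 18 livers. Its day averages were 136 ± 15.0, 141 ± 15.9 and 157 ± 6.22 scaled counts at P5, P7 and P14 (SD, n = 6 each). For P14 over P7 it differed by 0.17 ± 0.09 (SE) (limma adjusted p = 0.131). It passed 0.05 with the trend on transcript length removed (0.33, limma adjusted p = 0.00579), with quantile normalization (0.24, limma adjusted p = 0.035) and without P7 mimic replicate 3 (0.23, limma adjusted p = 0.0445).

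Between P5 and P7 only 3 of the 8 tested genes were called, Cxcr4, Cxcl12 and Csf1, beside 26.9% of all genes. The number fell to 0 with the trend on transcript length removed, without P7 scrambled replicates 2 and 3 together, and without P5 mimic replicate 3, P7 mimic replicate 1 or P7 scrambled replicate 1 alone. It was 1 without P5 scrambled replicate 2 or 3. In scrambled livers alone limma called 0 of 14104 genes between P5 and P7, with 3265 at an unadjusted p under 0.05. In mimic livers alone it called 1416 (10%), with 4294 at an unadjusted p under 0.05, and none of the 8 tested genes was called. For P14 over P7 the 7 calls became 2 in mimic livers alone, Cxcr4 and Flt3, beside 29.5% of all genes. In scrambled livers alone there were 4, Cxcr4, Flt3, Kit and Kitl, beside 33.8% of all genes. Over all livers the 7 calls became 4 without P7 mimic replicate 1 or P14 mimic replicate 3. The fits that left out 1 library called 6246 to 7415 of the 14104 genes. The comparison of P14 with P5, added after the values were seen, called 5 genes, Kit, Cxcr4, Flt3, Kitl and Cxcl12, beside 48.8% of all genes.

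The receptors of Epo and Csf1 also fell between P7 and P14. Epor, the erythropoietin receptor, averaged 370, 234 and 62.2 scaled counts at P5, P7 and P14, with a log2 difference for P14 over P7 of -1.89 (limma adjusted p = 1.52e-09), and had already fallen between P5 and P7 (-0.67, limma adjusted p = 0.00337). Csf1r, the Csf1 receptor of macrophages, averaged 1158, 1347 and 787.5 scaled counts (-0.78, limma adjusted p = 1.13e-06). Ligands outside the 9 genes rose: Il34, the second ligand of Csf1r, averaged 9.17, 16.7 and 45.8 (1.264, limma adjusted p = 0.00336), and Flt3l, the ligand of Flt3, 23.7, 17.2 and 27.7 (0.66, limma adjusted p = 0.0123). For Flt3l the difference was 0.98 in mimic livers alone (limma adjusted p = 0.0178) and 0.35 in scrambled livers alone (limma adjusted p = 0.371), and for Il34 it was 1.36 (limma adjusted p = 0.0310) and 1.17 (limma adjusted p = 0.0541). Ackr3, the scavenger receptor of Cxcl12, averaged 77.8, 65.7 and 88 and was not called (0.39, limma adjusted p = 0.0802).

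The balance of ligand to receptor was computed per liver as the ratio of the deposited values per kb, a measure added after the values were seen. Its log2 differences and tests used log2(scaled count + 1) of the ligand minus that of the receptor, without lengths. The median ratio of Cxcl12 to Cxcr4 was 1.21, 2.09 and 8.37 at P5, P7 and P14. That of Flt3l to Flt3 was 0.750, 0.423 and 2.06. For both pairs no P14 liver reached down to the P7 range, with log2 differences of 1.87 and 2.28. Each had the smallest p that 6 livers against 6 can give in the exact permutation test, 0.00216, or 0.00577 after adjustment over 8 tests of 4 pairs. Cxcr4 and Flt3 alone already had all P14 livers below all P7 livers, so these p-values are not separate support. The ratio of Csf1 to Csf1r had medians of 0.261, 0.272 and 0.366 (P14 over P7 0.48, exact permutation adjusted p = 0.0173). Kitl to Kit was the exception, at 2.17, 1.92 and 2.35 (0.33, exact permutation adjusted p = 0.223), and both of its genes fell.

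Among 30 other regulators and markers of blood stem and progenitor cells, all tested, 21 fell and 2 rose between P7 and P14, where 26.3% of all genes fell and 24% rose. Their median log2 difference was -0.81, against 0.01 for all genes. Gfi1b, a repressor of the erythroid and megakaryocyte lines, averaged 184 scaled counts at P7 and 4.33 at P14 (-5.38, limma adjusted p = 3.89e-11). Nfe2, an erythroid and platelet factor, differed by -3.57, Tal1, the stem cell and erythroid factor, by -3.12, and its relative Lyl1 by -1.98. Of 22 partners of the 9 genes, 19 were tested, of which 9 fell and 5 rose (median -0.19). Besides the receptors these include the kinase subunit Pik3cg, which fell by 1.63. Of 30 other niche and growth signals, 25 were tested, of which 5 fell and 7 rose (median 0.24), a count near the 50.3% called among all genes. Dlk1, a fetal hepatoblast protein, differed by -2.74, the adhesion molecule Vcam1 by -0.55, Tgfb1 by -0.53 and Igf1 by 0.59.

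**Figure D3:**
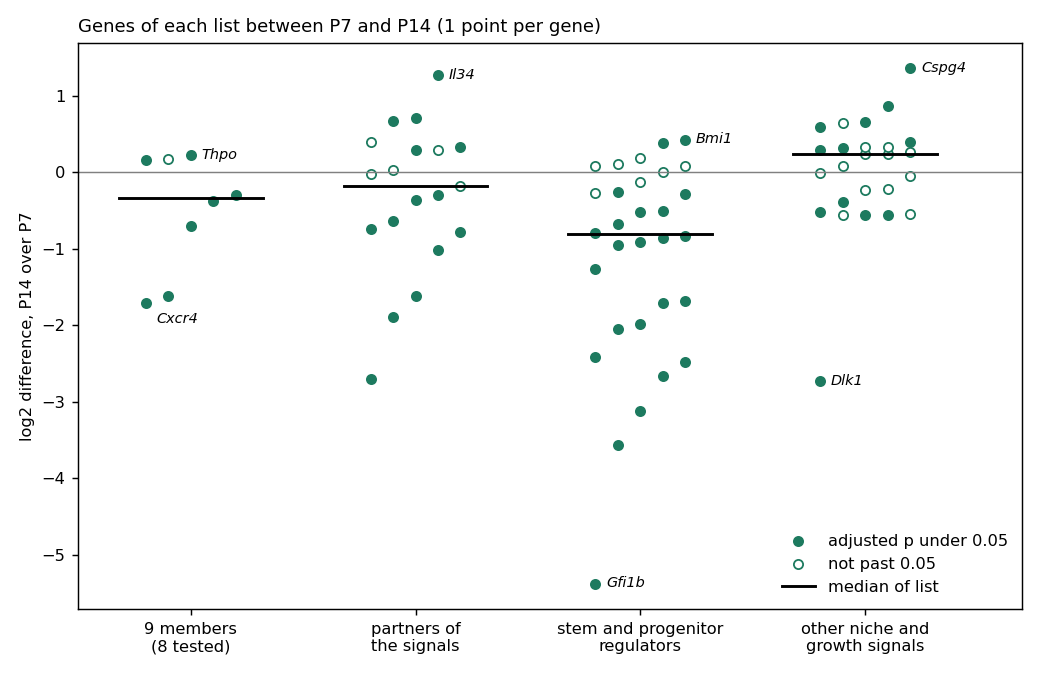
Log2 difference of P14 over P7 (y axis) for each tested gene of 4 lists (x axis), filled where the limma adjusted p is under 0.05, with a line at the median of the list. The points of the stem and progenitor list lie mostly below 0, down to Gfi1b at -5.38, and the niche and growth signals lie on both sides.

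Between P5 and P7, where 26.9% of all genes were called, the counts of the lists were near that share. Of the 30 stem and progenitor genes 6 fell and 3 rose, Lyl1 (-0.82), Cd34 (-0.46) and Lmo2 (-0.41) among those that fell and Hlf, which is also a hepatocyte gene, at 0.40. These 9 calls became 5 without P5 mimic replicate 1, P7 mimic replicate 1 or P7 mimic replicate 3. Cd34 averaged 199, 144 and 199 scaled counts at P5, P7 and P14 over both injections. The P14 mean joins mimic livers at 134 (212 at P5) and scrambled livers at 264 (187 at P5), so neither was back at its P5 level. Of the 19 partners tested 1 fell, Epor, and 4 rose, among them Dpp4, a peptidase that cleaves Cxcl12 (0.45), Stat5a (0.48) and Stat5b (0.35), which carry cytokine signals. Those 5 calls became 9 without P5 mimic replicate 2 and 10 without P5 scrambled replicate 1. Of the 25 niche and growth signals tested 2 fell and 4 rose, with the growth factor gene Ptn at -1.22, Angptl2 at 0.54, Fn1 at 0.44 and Igf1 at 0.35.

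The genes whose profile over the 18 libraries was most like that of a member are given as a description, since all of them share libraries and age. For Cxcr4 these were Stx11 (Pearson's r = 0.988), Gcnt1 (0.987) and Chst11 (0.979), and for Flt3 Wipf1 (0.967), Tfec (0.962) and Nin (0.956). Kit was closest to Lhfpl2 (0.931), Git1 (0.925) and Plxnc1 (0.922). Cxcl12 was closest to Ak3 (0.956), Pros1 (0.944) and Pipox (0.940), and Thpo to Fuca1 (0.870), Iyd (0.868) and Khk (0.862). Csf1 was closest to Eif2ak4 (0.865), Lama1 (0.820) and Zswim6 (0.805), and Kitl to Tbc1d1 (0.845), Ccdc88a (0.828) and Camk2d (0.825). Meis1 had the loosest neighbours, 2810006K23Rik (0.772), Fgfr3 (0.768) and Fam109a (0.746). Among the 9 genes themselves Cxcr4 and Flt3 were the most alike (r = 0.859, n = 18 libraries), and Cxcr4 and Cxcl12 ran most opposite (-0.744).

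The study asked which messages the mimic changes in the newborn liver. None of the 9 genes was called between mimic and scrambled livers at any day, where limma called 0 of 14104 genes at P5, 1 at P7 (0.00709%) and 3 at P14 (0.0213%). At an unadjusted p under 0.05 there were 266, 1073 and 763 genes. No gene of the 3 lists was called either. The test of a mimic effect that differs between days left out Epo and called none of the other 8, beside 1 of 14104 genes (0.00709%).

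Kitl had the lowest unadjusted p of the 8 tested genes at P7 and averaged over the days. Its P7 mimic livers lay wholly below its P7 scrambled livers, with a log2 difference of -0.41 and an SE of 0.16 (limma adjusted p = 0.522). At P5 the difference was -0.11 and at P14 -0.21, and averaged over the days -0.24 ± 0.09, with an unadjusted p of 0.0188 and a limma adjusted p of 1. Of all genes 3.24% had an unadjusted p under 0.05 in that average. Kitl holds no TGCTGCT in the UTR searched, and shorter seed matches were not looked for. Kit also lay wholly lower in P7 mimic livers (-0.37, limma adjusted p = 0.728) and Thpo wholly higher (0.16, limma adjusted p = 0.874). Summed hepatocyte markers also lay apart at P7, at 7535 to 8798 in mimic livers, against 6594 to 7444 in scrambled livers, as did stellate cell markers, at 5464 to 6049 in mimic livers, against 5021 to 5437 in scrambled livers. Megakaryocyte markers summed to 1718 to 2047 in P7 mimic livers, against 1111 to 1239 in P7 scrambled livers. Sinusoidal endothelial markers were lower, at 3979 to 4665 in P7 mimic livers, against 4778 to 5407 in P7 scrambled livers, and so were dendritic cell markers, at 386 to 441 in mimic livers, against 460 to 565 in scrambled livers. Mast cell and basophil markers overlapped, at 203 to 288 in P7 mimic livers, against 218 to 544 in P7 scrambled livers. P7 scrambled replicate 1 held the sum of 544 and also the highest muscle sum, 1455. The part of these cells in the differences of Kitl, Kit and Thpo was not tested. These 3 of 8 genes stand beside 14% of all genes whose P7 groups did not overlap. Without P7 scrambled replicates 2 and 3, which leaves P7 scrambled replicate 1 alone and takes the spread from the other groups, the difference was -0.43 for Kitl and -0.40 for Kit, and for Flt3 it was 0.00 in place of -0.58.

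At P5 none of the 8 genes was apart, beside 5.01% of all genes. At P14 it was Cxcl12 alone, lower in mimic livers, beside 9.31% of all genes, and its log2 difference there was -0.07 with an SE of 0.09 (limma adjusted p = 0.999), which became 0.03 with quantile normalization. The messages with a seed match had averaged differences of -0.14 (Kit), -0.01 (Cxcl12) and -0.05 (Csf1), with SE of 0.12, 0.05 and 0.09. For all genes with a match the median averaged difference was 0.00022, against -0.0054 for genes without one. In the same order the medians were -0.0087 and -0.017 at P5, 0.0087 and -0.0086 at P7 and -0.0059 and 0.0032 at P14. Epo, the fourth, had exact permutation p = 0.4, 0.6 and 0.5 at P5, P7 and P14, where 3 livers against 3 cannot give less than 0.1.

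**Figure D4:**
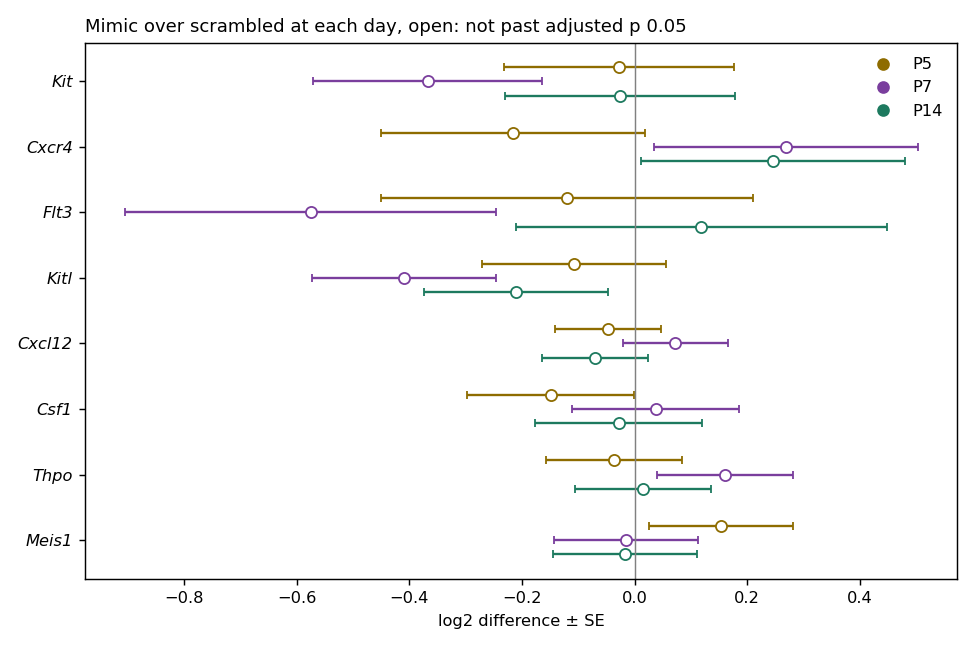
Log2 difference of mimic over scrambled (x axis, bars SE) for the 8 tested genes (y axis) at P5 (brown), P7 (purple) and P14 (green). All points are open, none being past a limma adjusted p of 0.05, and Kitl lies left of 0 at each day.

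Among the genes of the 3 lists, the stem and endothelial marker Cd34 came nearest to a call. It ran from 117 to 159 scaled counts in P14 mimic livers, against 223 to 328 in P14 scrambled livers, or -0.96 on the log2 scale with an SE of 0.18 (limma adjusted p = 0.0611). It passed 0.05 without P5 scrambled replicate 2 or P14 scrambled replicate 2.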

How the data were processed

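The 18 libraries were stranded mRNA libraries, per the labels' protocols. The values deposited by the authors are whole-number scores per gene, judged from the values to be counts divided by a factor per library and then rounded. Raw counts were not used here, so no count model was run. Tools named in the submitters' processing notes were featureCounts 1.6.5, STAR 2.6.1d, Trimmomatic 0.39, DESeq2 1.26.0 and Picard 2.21.7, on build mm10. What Picard did is not given in these notes.

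Sample titles gave the groups. limma 3.58.1 (R 4.3.3) was fitted on log2(value + 1) to the 14104 genes (45.3%) that averaged 10 or more, with 6 group means, 12 residual and 6.49 prior degrees of freedom, a mean-variance trend and a threshold of 0.05. This scale understates changes of low genes. The fit was also run on simulated data, whose outcome is not given here and is not used as support. Epo and the ratios had exact permutation tests. The members and lists were chosen with earlier results of these data known. Named beside the members were up to 4 genes of each list with the smallest p per age comparison, 5 direct receptors and ligands, and the 3 genes with a mean of 50 or more most like each member. Up to 2 per mimic comparison were eligible, of which Cd34 is given. A further gene that this rule names is not reported here. The ratios and the comparison of P14 with P5 were added after values were seen.

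Exon lengths and UTR annotation were those of GENCODE M21, which holds 31108 of the gene IDs. On mm10 the table places Cxcr4 at chr1:128588199-128592290 (minus strand), Cxcl12 at chr6:117168535-117181367 (plus), Kit at chr5:75574916-75656722 (plus) and Kitl at chr10:100015630-100100416 (plus). The worth of 1 read after scaling, read from the spacing of low whole numbers, was 0.7845 to 1.413. Intervals from such reads would cover counting error only. The limma tests were repeated with another pseudocount (5), filter (none, or a mean of 50), scaling (quantile, TMM), set of libraries, variance model and replicate block. They were also repeated with a trend on transcript length taken out. The age tests in mimic or scrambled livers alone were not repeated. The permutation tests of Epo and the ratios were repeated only with a pseudocount of 5, with TMM scaling or with 1 library left out.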

Additional observations from a re-analysis of the deposited data

How the results depend on the processing

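The calls that Cxcr4, Flt3 and Kit fell between P7 and P14, and between P5 and P14, held under the alternatives below and without any single library, and so did that of Cxcl12 for P14 over P5. In mimic livers alone Kit was not called for P14 over P7 (-0.54, limma adjusted p = 0.0548). The other age calls of the 9 genes were lost under at least 1 alternative, and no mimic effect on them was called under any. Depth limits Epo, and Flt3 was low too, at 11 to 25 scaled counts at P14. Groups held 3 livers and days 6, and what sets the precision of the rest was not tested. The causes of the changes below were not tested.

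The replicate numbers did not pair the livers: deviations of same-numbered mimic and scrambled livers correlated at -0.234 to 0.244, over 0.1 in 2 of 9 pairs, and those of differently numbered livers reached 0.385. With a replicate block 3 genes were called at P7 in place of 1 and 7 at P14 in place of 3, and the calls among the 9 genes kept their number, 3 for P7 over P5 and 7 for P14 over P7.

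Mimic genes called at P7 numbered 3 with no filter, 0 with a mean of 50 or more or with no mean-variance trend, 4 with quantile normalization and 7 with only the compared libraries. With no mean-variance trend the averaged effect had 0 calls, and a pseudocount of 5 gave 5 calls at P14. Several log2 differences near 0 changed sign. With a pseudocount of 5 Epo was at 0.043 for P14 over P7. With TMM scaling the mimic difference of Meis1 at P7 was 0.0087. Quantile normalization gave mimic differences of 0.049 at P5, 0.027 at P14 and 0.028 averaged for Cxcl12, 0.025 for Meis1 at P7 and -0.0086 for Thpo at P14, and 0.0017 for Thpo, P7 over P5. With the trend on transcript length removed the calls for P7 over P5 among the 9 genes went to 0, with Kitl at -0.0097, Thpo at 0.073 and Meis1 at -0.15, and the mimic differences at P14 were 0.013 for Kit, -0.00028 for Thpo and 0.031 for Meis1.

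Leaving out P7 scrambled replicates 2 and 3 leaves 1 library in that group, replicate 1, in which muscle markers summed to 1455, and this lone library is assumed to vary like the other groups. There were then 1470 genes called for P7 over P5 and 4651 for P14 over P7, with 0 and 3 of the 9 genes among them. The mimic calls were 19 at P7, 12 averaged and 12 for a difference between days. The mimic differences at P7 were 0.0043 for Flt3, -0.038 for Csf1 and 0.023 for Meis1, and averaged 0.00093 for Flt3, while P7 over P5 was -0.15 for Flt3 and 0.00034 for Thpo.

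Leaving out 1 library at a time gave 1988 to 5072 genes for P7 over P5, with 0 to 3 of the 9, and 4 to 7 of the 9 for P14 over P7. Mimic calls ran from 0 to 1 at P5, 0 to 13 at P7, 3 to 16 at P14, 0 to 4 averaged and 1 to 7 for a difference between days. Age differences spanned 0 for Thpo (-0.078 to 0.035) and Meis1 (-0.019 to 0.097) for P7 over P5, for Csf1 (-0.042 to 0.094) and Epo (-0.50 to 0.19) for P14 over P5, and for Epo (-0.34 to 0.36) for P14 over P7. Mimic differences spanned 0 at P5 for Kit (-0.14 to 0.14), Flt3 (-0.29 to 0.077), Cxcl12 (-0.14 to 0.045) and Thpo (-0.12 to 0.079). At P7 they did so for Csf1 (-0.029 to 0.075), Meis1 (-0.14 to 0.056) and Epo (-0.022 to 0.69). At P14 they did so for Flt3 (-0.086 to 0.47), Kit (-0.28 to 0.18), Cxcr4 (-0.12 to 0.57), Csf1 (-0.18 to 0.075), Thpo (-0.052 to 0.062) and Meis1 (-0.060 to 0.013). Averaged over days they did so for Cxcl12 (-0.047 to 0.016), Cxcr4 (-0.021 to 0.21) and Meis1 (-0.0018 to 0.065).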
